A study of Mus musculus with 4 samples.

Results

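The collagen genes of mouse gastric organoids were followed here, taken as the protein-coding genes whose symbol is Col, a number, the letter a and a second number with nothing after. This gave 44 genes of 45777 in the files, of which 21949 are protein-coding. Total RNA of 4 organoid lines was sequenced after ribosomal RNA removal with a stranded Illumina kit. The 2 libraries labelled Control came from organoids described in the series as Cdh1 and Trp53 knockouts, and the 2 labelled Smad4 Knockout from organoids that also lack Smad4. Cdh1 encodes E-cadherin, Trp53 encodes p53, and Smad4 encodes the SMAD that joins the receptor-activated ones in both TGF-beta and BMP signalling. By that description all 4 lines lack Cdh1 and Trp53, and no line with both genes intact was analysed here. Each library is 1 separately named line. Clonality, shared animals, the age and strain of the animals and the way the genes were removed are not in the labels. A p-value here therefore weighs the group difference only against the estimated spread between these libraries. For the last 2 days before harvest all lines were in Advanced DMEM/F12 plus B27 and N2, free of the serum and of the L-WRN cell supernatant used to maintain them.

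Collagens are mostly secreted proteins of 3 chains wound into a triple helix, and each chain is the product of its own gene. Fibrillar collagens build the fibres of connective tissue and are made mainly by fibroblasts. Epithelial cells contribute chains of the basement membrane, the sheet on which they rest: type IV collagen forms its network, type XVIII collagen is a proteoglycan within it, and type VII collagen anchors it to the tissue beneath. TGF-beta, acting through SMAD proteins, is a known inducer of several collagen genes. In these libraries 15 collagen genes had a mean of at least 1 CPM (a count scaled by its library's total), 26 passed the filter on low counts, and 11 had a count of 0 in all 4 libraries.

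The results turn on Col8a1, Col7a1, Col27a1 and Col5a1, which were lower in each knockout than in either control. They also turn on Col4a6 and Col14a1, which were higher in each. Shown is the DNA upstream of the start of Col8a1, Col7a1, Col27a1 and Col4a6. These 4 were among the genes that differed most between the groups, and SMAD proteins bind DNA. Each run lies directly before a RefSeq start, 5′ to 3′ on the gene's strand, in build GRCm38.p6. Capitals mark CAGAC on either strand, the short letters a SMAD protein is known to bind, which read GTCTG on the other strand.
Col8a1 (chr16:57754738-57754987, minus strand): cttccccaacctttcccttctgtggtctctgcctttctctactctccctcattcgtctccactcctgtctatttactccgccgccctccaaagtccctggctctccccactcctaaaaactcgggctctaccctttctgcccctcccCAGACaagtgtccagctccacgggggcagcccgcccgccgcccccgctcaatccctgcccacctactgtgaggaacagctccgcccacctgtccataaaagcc
Col7a1 (chr9:108953336-108953585, plus strand): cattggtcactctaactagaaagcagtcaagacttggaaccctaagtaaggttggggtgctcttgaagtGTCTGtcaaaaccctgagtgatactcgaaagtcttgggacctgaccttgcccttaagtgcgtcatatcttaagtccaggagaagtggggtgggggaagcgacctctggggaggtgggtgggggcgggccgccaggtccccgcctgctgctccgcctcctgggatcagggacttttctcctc
Col27a1 (chr4:63215162-63215411, plus strand): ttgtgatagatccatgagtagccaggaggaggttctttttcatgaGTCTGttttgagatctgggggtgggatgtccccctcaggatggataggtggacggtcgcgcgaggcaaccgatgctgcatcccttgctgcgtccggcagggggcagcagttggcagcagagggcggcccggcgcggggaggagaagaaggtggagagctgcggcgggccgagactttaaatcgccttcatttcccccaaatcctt
Col4a6 (chrX:141474096-141474326, minus strand): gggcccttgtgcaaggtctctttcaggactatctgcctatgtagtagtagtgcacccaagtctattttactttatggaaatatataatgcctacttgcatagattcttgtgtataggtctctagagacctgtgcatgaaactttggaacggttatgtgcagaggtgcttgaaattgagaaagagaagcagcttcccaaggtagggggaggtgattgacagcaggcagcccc
The runs of Col8a1, Col7a1 and Col27a1 hold these letters 1 time each, and that of Col4a6, shortened to the 231 bases outside the RefSeq gene, holds them 0 times. Beyond these genes the letters did not follow direction. Col20a1, higher in both knockouts, holds them 1 time, as does Col5a1, lower in both. Col16a1 and Col6a1, lower in both, hold them 0 times. Col18a1, also lower in both, holds them 1 time in 1 window and 0 times in another. So short a motif is common: 42.2% of 32841 RefSeq windows of 250 bases before a start hold it, as do 7 of 13 windows found for 12 of the 15 collagens above 1 CPM. Searched on both strands in the same 13 windows, the letters GGGCGG (SP factors) were in 9, GGAATG (TEAD factors) in 2 and TGANTCA (AP-1) in 1, against 32.7%, 12.6% and 6.75% of all windows. A match is a description of the sequence, not a binding site. The Col27a1 run lies inside the span of a longer RefSeq transcript that starts upstream of it, and no GENCODE M21 exon lies in any of the 4 runs.

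The libraries held between 85649781 and 99845702 counts. Smad4 stood at 94.5 and 103 CPM in the control libraries, against 54.4 and 52.9 CPM in the Smad4 Knockout libraries, so its transcript was lower but present in both libraries labelled Smad4 Knockout. Transcripts of the other targeted genes were present in all libraries too, Cdh1 at 30.7, 26.02, 30.6 and 44.1 CPM and Trp53 at 4.87, 6.98, 5.43 and 4.69 CPM (controls, then knockouts). With no intact line to compare, and the deleted parts not known here, these values do not check those knockouts. The libraries did not pair by genotype. Over 10804 genes the root mean square difference in log2 CPM was smallest between Smad4 Knockout 1 and Control 2, at 0.232, and largest between Smad4 Knockout 2 and the controls, at 0.338 and 0.395. Within a genotype it was 0.287 (Control) and 0.274 (Smad4 Knockout). Smad4 Knockout 2 had the highest shares of mitochondrial and ribosomal RNA counts, 1.48% and 0.562%, against 0.941% to 1.18% and 0.242% to 0.389% in the other libraries. Their part in the results below was not tested. Epithelial markers (Epcam, Krt8, Krt18, Krt19 and Cldn4) summed to between 8814 and 9903 CPM in every library. Among them Cldn4 was lower in both knockouts, at 824 and 643 against 616 and 357 CPM. Of the 7 gastric gland markers, 3 were at 0 in all libraries. Muc6 had 16 and 12 counts in the controls and 0 in each knockout. Tff2 stood at 17.9 and 12.9 against 37.7 and 23.4 CPM, and Atp4a at 3.91 and 4.02 against 3.60 and 3.54 CPM. The 4 pit markers summed to 29.4 and 19.8 against 39.01 and 84.9 CPM, and the groups overlapped for Muc5ac and Gkn2. Of these stomach markers DESeq2 called Gkn1, Tff1 and Tff2 higher (adjusted p = 0.00352, 0.03503 and 0.0485). Over all genes DESeq2 called 0.53% higher and 0.171% lower. The edgeR test called 0 of these markers. The part of these shifts in the collagen results was not tested.

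Collagen transcripts took 0.128% and 0.133% of all counts in Control 1 and Control 2, and 0.118% and 0.107% in Smad4 Knockout 1 and Smad4 Knockout 2. The control mean was 0.130% ± 0.00346 (SD, n = 2) and the knockout mean 0.113% ± 0.00777 (SD, n = 2). Both knockout libraries lay below both controls, a ratio of 0.867, and 2 libraries against 2 cannot give an exact two-sided permutation p below 0.333. A single gene, Col8a1, accounted for most of this gap. Without it, a comparison chosen after seeing the data, the shares were 0.0963% and 0.105% in the control libraries, against 0.0979% and 0.0950% in the Smad4 Knockout libraries. Those groups overlap, with a ratio of 0.958. In bulk RNA, fewer cells of a type and less RNA per cell cannot be told apart.

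**Figure D1:**
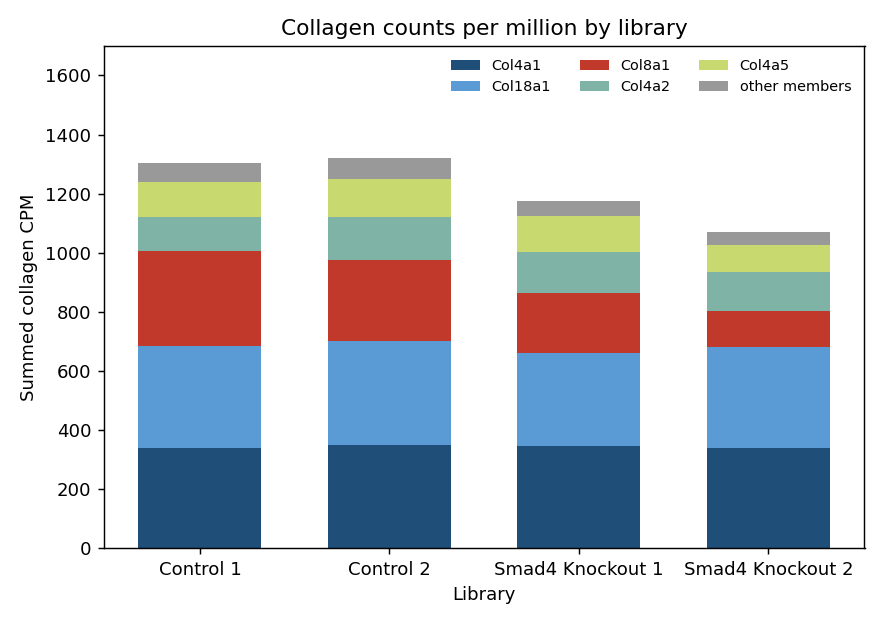
Summed collagen CPM (y axis) in each of the 4 libraries (x axis), split by gene, with the 39 members beyond the 5 most abundant in grey. The totals are 1302 and 1321 CPM in the control libraries, against 1174 and 1069 CPM in the Smad4 Knockout libraries, and the Col8a1 segment differs most, with 321 and 273 CPM against 203 and 123 CPM.

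The family was dominated by 5 chains in every library: Col18a1, Col4a1, Col8a1, Col4a2 and Col4a5 took between 94.6% and 96.1% of the collagen counts. Levels of different genes were compared as deposited TPM, a scale that corrects for gene length. Col18a1, the core of a basement membrane proteoglycan and the source of the fragment endostatin, was the highest member in each library at 106 and 115 TPM in the control libraries, against 106 and 106 TPM in the Smad4 Knockout libraries. Col4a1, a chain of the main type IV network, followed at 79.5, 87.9, 89.7 and 81.5 TPM in Control 1, Control 2, Smad4 Knockout 1 and Smad4 Knockout 2. Its range lies below that of Col18a1 without overlap. Col8a1 was above Col4a1 in both controls and below it in both knockouts, so the second and the third place were held in opposite order in the groups. Col4a2 ranked above Col4a5 in each library, although their ranges over libraries overlapped, at 28.5 to 37.4 TPM and 22.8 to 33.2 TPM. A wide gap followed, since the next member, Col16a1, stood at 3.95 TPM at most.

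**Figure D2:**
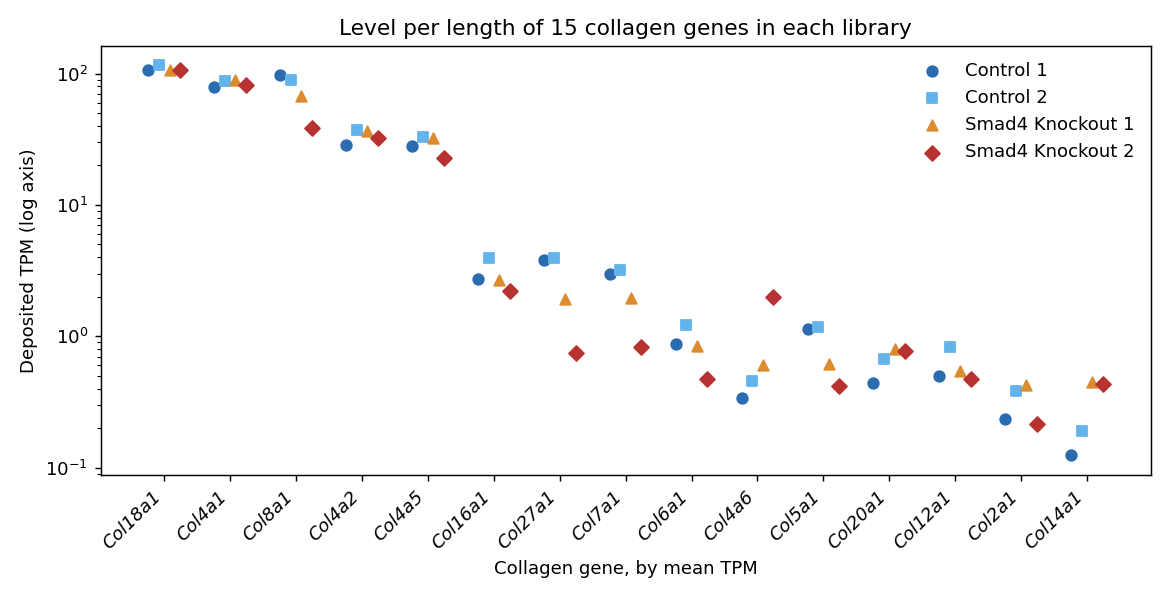
Deposited TPM (y axis, log scale) of the 15 collagens at or above a mean of 1 CPM (x axis, by mean TPM), 1 symbol per library. The 5 highest genes lie at or above 22.8 TPM in all libraries, and the knockout symbols lie furthest below the controls for Col8a1, Col27a1, Col7a1 and Col5a1 and above them for Col4a6 and Col14a1.

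The comparison of Smad4 Knockout with Control asked which collagens differ with the loss of Smad4. With edgeR's quasi-likelihood test 0 of the 26 collagens tested passed an adjusted p of 0.05, as did 0% of the 18115 genes tested. Smad4 itself (log2 fold change -0.88, SE 0.10) did not pass, at an edgeR adjusted p of 0.677, while its DESeq2 adjusted p was 2.0e-08. A gene that edgeR did not call here is therefore not shown to be unchanged. With limma on the TPM, which kept 9 collagens, 0 passed too. At an unadjusted p under 0.05 edgeR gave 4 collagens lower and 2 higher, against a background of 3.04% of genes lower and 3.33% higher. DESeq2 on the same genes called 2 collagens, Col8a1 and Col5a1, both lower, where 0.171% of all genes were called lower and 0.53% higher. DESeq2 with no filter on low counts, chosen after seeing the data, called Col8a1 only, with a background of 0.175% lower and 0.52% higher.

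Of the 15 collagens with a mean of at least 1 CPM, 11 were lower and 4 higher in the knockouts by log2 fold change. Of all genes at that level 51.2% were lower. Signs of values near 0 are counted too: Col4a1 at -0.002 and Col2a1 at -0.01 among the 11, and Col4a2 at 0.03 among the 4. Among these 15, both knockout libraries lay below both controls in 7 (background 19.6%), above both in 3 (background 17.9%), and overlapped in 5. Their median log2 fold change was -0.18, beside -0.01 over all 13287 genes at that level. Over all 26 members tested, 17 were lower (background 50.5%), with a median of -0.29 beside 0.00 over all genes tested. A log2 fold change of at most -1 was found in 5 members (background 3.7%) and of at least 1 in 6 (background 4.9%). These counts over 26 are a description only, since 6 of the 26 passed the filter without reaching it in both libraries of both groups, all with a mean under 1 CPM.

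**Figure D3:**
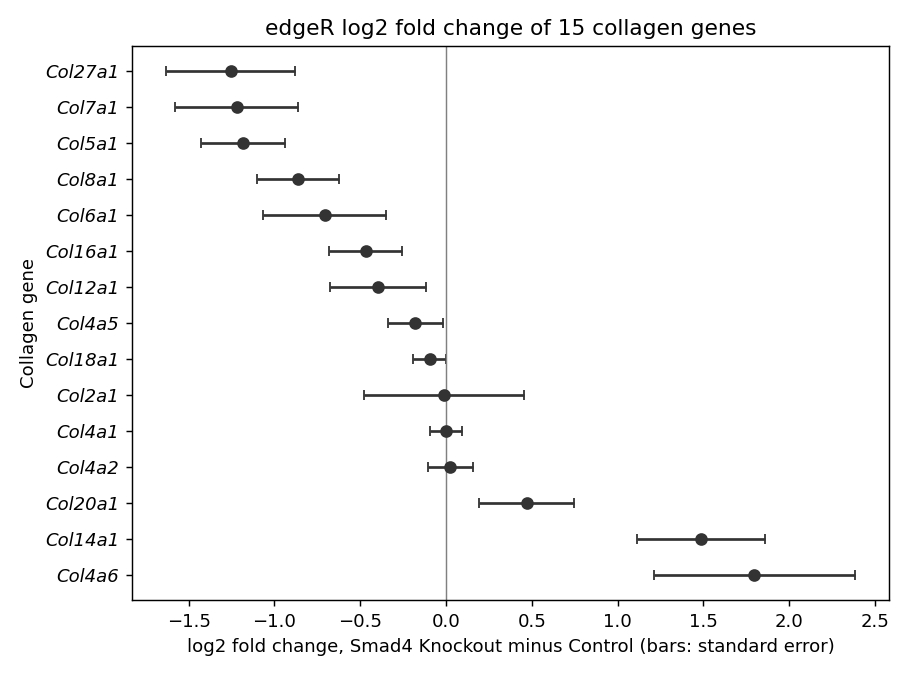
edgeR log2 fold change of Smad4 Knockout minus Control (x axis) with its standard error (bars) for the 15 collagens at or above a mean of 1 CPM (y axis). Col27a1, Col7a1, Col5a1 and Col8a1 lie lowest, from -1.25 to -0.86, the type IV chains Col4a1 and Col4a2 lie at 0.00 and 0.03, and Col14a1 and Col4a6 lie highest at 1.49 and 1.80.

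Type VIII collagen is a short chain collagen that forms open networks in the matrix under some epithelial and endothelial layers. Its chain Col8a1 (gene ID 12837) spans 57624256 to 57754737 of chromosome 16 in GRCm38. Col8a1 stood at 321 and 273 CPM in the control libraries, against 203 and 123 CPM in the Smad4 Knockout libraries. Every knockout value was below every control value, and the lowest was in Smad4 Knockout 2. The group means were 297 ± 33.9 CPM and 163 ± 56.3 CPM (SD, n = 2 each), a level of 55.0% of the control and a log2 fold change of -0.86 (SE 0.24). The edgeR adjusted p was 0.677, the DESeq2 adjusted p was 0.0287, and over the 10 alternatives the adjusted p ranged from 0.0179 to 0.9998. Leaving out Smad4 Knockout 2 gave a log2 fold change of -0.53, and leaving out Smad4 Knockout 1 gave -1.27 with an edgeR adjusted p of 0.0478. Col8a2, the other type VIII chain, stood at 0.132 TPM at most, so Col8a1 exceeded it by 672 to 968 times in TPM in the 4 libraries. Col8a2 had a log2 fold change of -0.98 (SE 0.83), on 12 to 41 counts.

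Both type IV chains of the main basement membrane network, Col4a1 and Col4a2, differed between the groups by less than their standard errors. Col4a1 (gene ID 12826, 11198423 to 11312889 of chromosome 8) stood at 338 and 349 CPM in the control libraries, against 347 and 339 CPM in the Smad4 Knockout libraries, with a log2 fold change of 0.00 (SE 0.09). Col4a2, its partner in the trimer, stood at 118 and 145 against 137 and 130 CPM (0.03, SE 0.13). The first RefSeq starts listed for these 2 genes lie 21 bases apart on opposite strands, and their gene spans overlap by 85 bases. In TPM the ratio of Col4a1 to Col4a2 stayed between 2.35 and 2.79. Col4a5, a chain of the networks of some specialised basement membranes, stood at 117 and 130 against 124 and 93.3 CPM (-0.18, SE 0.16). For these 3 chains the groups overlapped, and the sign of the difference of each changed with the settings given in the closing section. Col18a1 stood at 346 and 353 against 314 and 341 CPM (-0.10, SE 0.10). Both knockouts were lower there, by about 1 standard error.

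Col4a6, which joins Col4a5 in basement membranes of epithelia and smooth muscle, had the largest log2 fold change of the type IV chains. Its gene (ID 94216) spans 141165403 to 141474095 of the X chromosome. Col4a6 stood at 1.43 and 1.66 CPM in the control libraries, against 2.35 and 8.38 CPM in the Smad4 Knockout libraries. Both knockouts were above both controls, but the mean of 5.36 ± 4.26 CPM (SD, n = 2) rests on Smad4 Knockout 2. The log2 fold change was 1.80 (SE 0.59, edgeR adjusted p = 0.694). Without Smad4 Knockout 2 it was 0.62, and without Smad4 Knockout 1 it was 2.44 with an edgeR adjusted p of 0.0229, where 0.25% of genes were called higher. Over the 8 alternatives that could test it, the adjusted p ranged from 0.0229 to 0.9998. The first RefSeq starts listed for Col4a6 and Col4a5 lie 1343 bases apart on opposite strands of the X chromosome. The ratio of Col4a5 to Col4a6 in TPM was 83.2 and 73.1 in the control libraries, against 54.2 and 11.4 in the Smad4 Knockout libraries, so that it was lower in both knockouts. Col4a3 and Col4a4, the partners of Col4a5 in the third type IV network, were scarce. Col4a4 stood at 0.704 and 1.12 against 0.474 and 0.578 CPM (-0.79, SE 0.48), lower in both knockouts. Col4a3 was at 0.521 CPM at most (-0.80, SE 1.06), with overlapping groups.

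Type VII collagen forms the anchoring fibrils that fasten epithelia to the stroma. Col7a1 (gene ID 12836, 108953586 to 108984875 of chromosome 9) stood at 3.01 and 3.20 TPM in the control libraries, against 1.95 and 0.824 TPM in the Smad4 Knockout libraries. Its controls were nearly equal, with 17.9 ± 0.0364 CPM, while the knockouts differed from each other (7.68 ± 4.07 CPM, SD, n = 2 each). The knockout level was 43.0% of the control level (log2 fold change -1.22, SE 0.36, edgeR adjusted p = 0.677). Leaving out Smad4 Knockout 2 gave -0.74. Leaving out Smad4 Knockout 1 gave -1.90, and there the edgeR adjusted p was 0.0248 and 0.229% of genes were called lower. Over the 10 alternatives the adjusted p of Col7a1 ranged from 0.0248 to 0.9998.

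Of the fibrillar collagens 7 were tested, and 6 of these were lower (background 50.5%), a description only, since Col3a1 passed the filter through the controls alone. Summed over its 11 genes the class stood at 5.77 and 6.28 TPM in the control libraries, against 3.48 and 1.80 TPM in the Smad4 Knockout libraries. Col27a1 was the largest part of that sum. It is a fibrillar chain best known from cartilage (gene ID 373864, 63214009 to 63334991 of chromosome 4), at 14.7 and 13.9 CPM in the control libraries, against 8.34 and 3.66 CPM in the Smad4 Knockout libraries. Its knockout level was 42.01% of the control (log2 fold change -1.25, SE 0.38, edgeR adjusted p = 0.677), with -0.76 without Smad4 Knockout 2. Without Smad4 Knockout 1 it was -1.96 with an edgeR adjusted p of 0.0278, and over the 10 alternatives the adjusted p ranged from 0.0278 to 0.9998. Col27a1 and Col7a1 thus had similar values in each knockout library relative to the control mean, at -0.78 and -0.76 in Smad4 Knockout 1 and at -1.96 and -1.90 in Smad4 Knockout 2.

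Col5a1, a chain of the type V collagen that starts fibrils, had the smallest unadjusted p of the family (edgeR adjusted p = 0.677). It lies on chromosome 2 from 27886381 to 28039510 (gene ID 12831). Its level was 1.13 and 1.17 TPM in the control libraries, against 0.618 and 0.418 TPM in the Smad4 Knockout libraries. The group means were 5.95 ± 0.0565 CPM and 2.63 ± 0.575 CPM (SD, n = 2 each), with a log2 fold change of -1.18 (SE 0.25). This gap exceeded the spread within either group, and its log2 fold change stayed between -1.42 and -0.96 when any 1 library was left out. DESeq2 gave an adjusted p of 0.0449, or 0.0546 with no filter on low counts, and over the 10 alternatives it ranged from 0.0449 to 0.9998. The partner chain Col5a2 had 2 counts in Control 1 and 0 in the other libraries, and Col5a3 had 0 in all.

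The fibrillar chains typical of fibroblasts were near the floor. Col1a1 had 87 and 142 counts in the control libraries against 57 and 42 (log2 fold change -1.15, SE 0.49). Its usual partner in type I collagen, Col1a2, had 16 counts in Smad4 Knockout 1 and 0 elsewhere. Col3a1 had 22, 34, 10 and 0 counts, and Col2a1, the cartilage chain, stood at 0.827 and 1.24 against 1.32 and 0.733 CPM, with overlapping groups. Col11a1 and Col11a2, chains of type XI collagen, differed in sign, at -0.80 (SE 0.41) and 1.23 (SE 0.67) on at most 110 counts. Markers of fibroblasts outside the collagens were almost absent too: 4 of 9 had 0 counts in all libraries, Lum and Pdgfrb among them, and Dcn had 5 counts at most. The list summed to 1.54 and 1.80 CPM in the control libraries, against 1.45 and 0.671 CPM in the Smad4 Knockout libraries. Most of that was Pdgfra, at 1.54 and 1.68 against 1.02 and 0.619 CPM. Endothelial markers summed to 5.71 and 5.03 CPM against 4.72 and 3.10 CPM, with Kdr as the main part. Smooth muscle and pericyte markers were not lower in both knockouts. Their highest sum, 4.26 CPM, was in Smad4 Knockout 2, and the groups overlapped, with 3.87 CPM in Control 2 and 3.54 CPM in Smad4 Knockout 1. Of the 4 tested in that list, 2 were lower and 2 higher. Leukocyte markers summed to between 4.14 and 4.36 CPM. The fibroblast and endothelial sums were lower in both knockouts, as was the sum of the fibrillar collagens, and their part in that result was not tested.

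Among the FACIT collagens, which sit on the surface of fibrils, the members differed in direction. Col16a1 stood at 9.08 and 12.5 CPM in the control libraries, against 8.15 and 7.44 CPM in the Smad4 Knockout libraries (log2 fold change -0.47, SE 0.21), lower in both, with -0.22 without Control 2. Col12a1 stood at 3.75 and 5.84 against 3.78 and 3.51 CPM (-0.39, SE 0.28), with overlapping groups and -0.04 without Control 2. Col14a1, known for regulating fibril growth, was higher in both knockouts, at 0.510 and 0.734 against 1.71 and 1.78 CPM. Its log2 fold change of 1.49 (SE 0.37, edgeR adjusted p = 0.677) stayed between 1.25 and 1.77 with any 1 library left out, and its adjusted p ranged from 0.305 to 0.9998 over 8 alternatives. The knockouts of Col14a1 agreed closely with each other (1.74 ± 0.0440 CPM, SD, n = 2), unlike those of Col4a6. Col20a1 was also higher in both knockouts, at 2.08 and 3.02 against 3.49 and 3.57 CPM (0.47, SE 0.28). That gap is of the size of the gap between the 2 controls, and the log2 fold change was 0.23 without Control 1 and 0.76 without Control 2. DESeq2 called neither Col14a1 nor Col20a1.

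**Figure D4:**
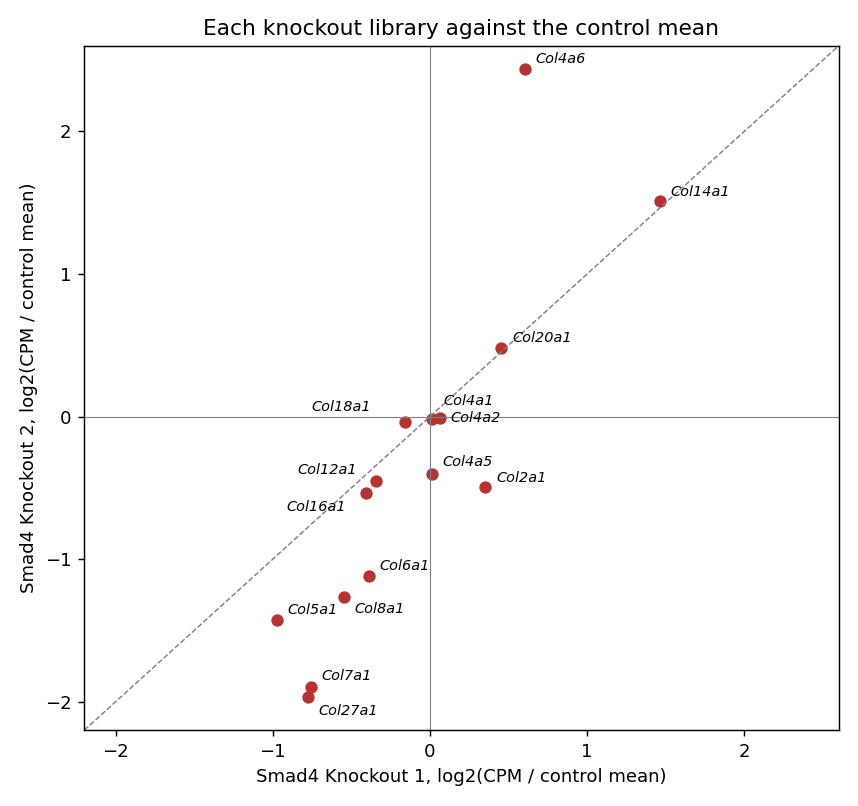
log2 of the CPM of Smad4 Knockout 1 (x axis) and of Smad4 Knockout 2 (y axis) over the control mean, 1 point for each of the 15 collagens at or above a mean of 1 CPM. Points on the dashed line have the same value in both libraries, and Col14a1 and Col20a1 lie close to it. Col27a1, Col7a1, Col2a1, Col6a1 and Col8a1 lie furthest below it, followed by Col5a1 and Col4a5. Col4a6 lies furthest above it.

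The 2 knockout libraries, set against the same control mean and so not independent, differed in how far the collagens lay from it. The median over the 15 genes was -0.16 in Smad4 Knockout 1 and -0.45 in Smad4 Knockout 2. Of these 15 genes, 11 were lower in Smad4 Knockout 2 than in Smad4 Knockout 1, beside 49.1% of all genes at that level. Without Smad4 Knockout 1, edgeR called 4 collagens, namely Col8a1, Col7a1 and Col27a1 as lower (background 0.229%) and Col4a6 as higher (background 0.25%). With any other library left out it called 0 collagens, beside at most 0.00523% of all genes, reached without Control 1. The fit without 1 library assumes that the lone library of a group varies like the other group.

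The remaining classes were thinly expressed. Of type VI collagen, the beaded filament type, Col6a1 stood at 2.25 and 2.90 CPM in the control libraries, against 1.97 and 1.19 CPM in the Smad4 Knockout libraries (-0.71, SE 0.36), lower in both, with -0.38 without Smad4 Knockout 2 and -1.12 without Smad4 Knockout 1. Col6a2 had 0, 44, 8 and 38 counts and Col6a3 had 3 counts in 1 library, so the 3 chains of the usual trimer were not all detected at a steady level. Col17a1, the transmembrane collagen of hemidesmosomes, had 19 counts in Control 1 and 0 in the others. By counting error alone, a library at 0 may hide 3 counts. Apart from that, 8 members had 0 counts in at least 1 library and over 10 in another, and the cause was not tested. In all, 18 members were not tested, with 19 counts at most in any library.

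Enzymes and carriers that mature collagen were examined as the other genes of the pathway. Of 33 listed, 30 were tested, 21 of them lower (background 50.5%) and 9 higher in the knockouts, with a median of -0.16 in log2 fold change. The edgeR test called 0 of them, 1 had an unadjusted p under 0.05, and DESeq2 called 0. Both knockouts lay below both controls in 11 (background 18.6%) and above both in 1 (background 18.2%). Prolyl 4-hydroxylation, which lets the triple helix hold at body temperature, depends on P4ha1 and P4ha2. P4ha2 stood at 45.2 and 52.2 CPM in the control libraries, against 41.0 and 35.4 CPM in the Smad4 Knockout libraries (-0.35, SE 0.13), and P4ha1 at 74.5 and 56.8 against 51.8 and 51.1 CPM (-0.35, SE 0.15). Their shared partner P4hb, which also acts as a general disulfide isomerase, stood at 1154 and 1060 against 1052 and 1175 CPM (0.01, SE 0.11). Of the cross-linking enzymes, Loxl4 was the most abundant at 79.3 and 81.7 against 71.1 and 67.7 CPM (-0.21, SE 0.10), and Lox had 10 counts at most. Pcolce2, an enhancer of propeptide removal, stood at 27.9 and 21.5 against 20.7 and 17.04 CPM (-0.39, SE 0.18). Serpinh1, the collagen-specific chaperone, was low throughout, at 3.71 and 5.49 against 5.11 and 1.75 CPM.

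Of 14 listed collagen and basement membrane receptors 11 were tested, 7 of them lower and 4 higher, with a median of -0.09 in log2 fold change. Over all genes tested 50.5% were lower, with a median of 0.00. None of the receptors passed edgeR or DESeq2, and 0 had an unadjusted edgeR p under 0.05. Itga2, an alpha chain of a collagen-binding integrin, stood at 661 and 735 CPM in the control libraries, against 613 and 397 CPM in the Smad4 Knockout libraries (-0.47, SE 0.21). Its relative Itga1 was higher in both knockouts, at 17.2 and 16.9 against 18.4 and 22.9 CPM (0.28, SE 0.16). Ddr1, a collagen-activated receptor kinase, stood at 75.2 and 67.8 against 69.6 and 64.6 CPM, with overlapping groups. Itgb1, the highest of the list by mean CPM, stood at 757 and 707 against 736 and 699 CPM (-0.03, SE 0.10), also with overlapping groups. Itga6 was higher in both knockouts, at 423 and 411 against 451 and 494 CPM (0.18, SE 0.10). Of 18 listed proteins that bind collagen fibrils 8 were tested, 6 of them lower (median -0.45, with the same background), and 0 passed in edgeR, at an unadjusted p under 0.05 or in DESeq2. Sparc, a collagen-binding matricellular protein, stood at 2.80 and 1.81 against 1.39 and 0.454 CPM (-1.33, SE 0.57). Fn1, fibronectin, stood at 467 and 676 against 547 and 284 CPM, with overlapping groups. Thbs1, the highest of these by mean CPM, stood at 963 and 1269 against 1187 and 882.5 CPM (-0.11, SE 0.19), with overlapping groups too.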

How the data were processed

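Gene expression was measured in 4 libraries, 2 per genotype, from 0.5 ug of total RNA each. Each deposited file lists counts, FPKM and TPM by gene, per the file headers. Of tools, HISAT2 2.1.0, StringTie 2.1.3b, Trimmomatic and bcl2fastq 2.20.0 appear in the submitters' processing notes, with mm10 as the build but no roles. The read counting and its strand setting, not given in the sources used here, could shift the counts of overlapping genes. All deposited counts were whole, and the tests took them as estimated counts. The deposited TPM, which the authors scaled for length and depth, were used for levels between genes and an alternative test. The 5 FPKM columns were not used, 1 of which, in the file of Smad4 Knockout 1, is named for Smad4 Knockout 2. The columns of Control 2 bear its title followed by a 2.

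Counts were tested with edgeR 4.0.16 in R 4.3.3 (quasi-likelihood fit, genotype as the only term, TMM factors, genes kept by filterByExpr at a minimum count of 10) with Benjamini-Hochberg adjustment over 18115 genes at 0.05. CPM values use TMM-scaled library sizes, and the SE is the log2 fold change over the root of its F statistic. Alternatives were RLE normalization, no filter, DESeq2 1.42.0, limma 3.58.1 with trend on log2(TPM + 1) or log2(TPM + 0.1) for genes with TPM of at least 1 in 2 libraries, and leaving out each library. DESeq2 with no filter and the collagen share without Col8a1 were chosen after seeing the data. Simulated counts with known changes served to check the fits.

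Depth ranged from 85649781 to 99845702 counts. Members, gene lists and the rule for named genes (collagens that pass the filter, with all values for a mean of at least 1 CPM, and list members with the smallest p or the highest level) were chosen with earlier results of these data known. A few further list and marker genes were named after their values were seen. Spreadsheet dates had replaced 26 gene symbols, restored from gene IDs. Coordinates and upstream sequences are those of RefSeq on GRCm38.p6, and 35 of 44 collagens had an upstream sequence there. Motifs were sought on both strands of 250 bases. The counts of overlapping RefSeq genes other than Col4a1 and Col4a2, which overlap each other by 85 bases, were 18 at most for collagens with a mean of at least 1 CPM.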

Additional observations from a re-analysis of the deposited data

How the results depend on the processing

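No paired analysis was possible because the labels give the libraries no shared replicate number. The count of all genes called, 0 in edgeR in either direction, was 96 higher and 31 lower with DESeq2, 98 and 33 with DESeq2 without a filter, and from 0 to 48 higher and 0 to 44 lower with 1 library left out, the highest without Smad4 Knockout 1. Collagens called went from 0 to 2 with DESeq2, 1 with DESeq2 without a filter, and 0 to 4 with 1 library left out. Collagens lower, 17 of 26, were 7 of 9 with limma on TPM at either pseudocount and 11 of 15 with a mean of at least 1 CPM, where fewer genes were tested. The ratio of collagen shares, 0.867, was 0.816 without Col4a1 and 0.958 without Col8a1. The collagen median, -0.29, ranged from -0.52 to -0.09 with 1 library left out, the last without Control 2.

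Among the collagens with a mean of at least 1 CPM, those that changed sign lay between -0.18 and 0.03 in the main edgeR fit. Col4a1 was at 0.00174 in DESeq2 without a filter, 0.000981 in DESeq2, 0.000981 with RLE, 0.0335 and 0.0331 with limma on log2(TPM + 0.1) and log2(TPM + 1), 0.00923 with no filter, and from -0.0246 to 0.0279 with 1 library left out. Col4a2 ranged from -0.11 to 0.18, Col4a5 from -0.40 to 0.0262 and Col2a1 from -0.50 to 0.36 with 1 library left out. The causes were not tested. Depth limits the members under 1 CPM, and 2 libraries per group limit every test.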
